A study of Mus musculus with 31 samples.

Results

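Gene expression in long-term hematopoietic stem cells (HSC) was compared 7 days after an injection of β-glucan or of phosphate-buffered saline (PBS). The members were all 7 HSC libraries labelled day 7, of 31 libraries in the series: 3 from mice given 1 mg of β-glucan into the peritoneum and 4 from mice given PBS. All mice were C57BL/6, 10 weeks old, with no transgene or other agent named in the labels, and cells were sorted from bone marrow. HSC sorted at day 28 from separately injected mice (4 PBS and 4 β-glucan libraries) served as the only other comparison. The labels do not say whether libraries of a group came from separate mice, so the spread between them may be technical in part. The 7 libraries held 19331663 to 26009040 counts over 45706 gene identifiers, with 21717 to 23506 genes detected. No pair of replicates had the same counts (mean chi-square per gene 6.75 to 43.2). Levels are given as CPM, the counts of a gene scaled to a common library size. A filter on low counts left 16403 genes for the test.

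HSC sit at the top of blood formation and give rise to erythroid, granulocytic, monocytic, megakaryocytic and lymphoid cells through intermediate progenitors. β-Glucan is a fungal cell wall polysaccharide that is bound by dectin-1 (Clec7a) on myeloid cells and signals through Syk and Card9. It is a standard agent of trained immunity, in which an earlier stimulus changes later innate responses. The comparison asks which genes had changed in HSC a week after that stimulus.

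All 30 genes of a list of HSC markers were detected and tested, and together they held 0.433 to 0.559% of counts after β-glucan and 0.469 to 0.525% in PBS. 6 of the 30 rose and 2 fell. Ifitm3, an interferon-induced membrane protein, had 1077, 1009 and 1019 CPM in the β-glucan libraries and 746, 681, 745 and 761 CPM in the PBS libraries (log2 fold change 0.50 ± 0.07 (SE), adjusted p = 0.0017). Ly6a, which encodes the Sca-1 antigen, a common surface marker of HSC, rose by 0.45 on the log2 scale and Esam, an adhesion molecule, by 0.43. The stem cell factor receptor Kit had 672, 551 and 484 CPM in the β-glucan libraries and 736, 772, 723 and 761 CPM in the PBS libraries (log2 fold change -0.40 ± 0.10 (SE), adjusted p = 0.036), and Cd34 changed by -0.40 ± 0.08 (log2, SE). The libraries of the 2 groups did not overlap for any of these 5 genes. The homeobox factor Meis1 (-0.22 ± 0.10, adjusted p = 0.25) did not pass the threshold. Without the library in brackets, Ly6a (β-glucan replicate 1 or 3 or PBS replicate 1, 2 or 3), Esam (β-glucan replicate 1 or PBS replicate 1, 2 or 3) and Kit (β-glucan replicate 2 or 3 or PBS replicate 1, 2, 3 or 4) did not pass. The libraries also held RNA of differentiated cells. Erythroid markers made up 2.30 to 3.25% of counts after β-glucan and 6.90 to 8.34% in PBS, mature neutrophil markers 8.87 to 12.8% of counts after β-glucan and 6.29 to 7.14% in PBS, and B cell markers 0.262 to 0.290% of counts after β-glucan and 0.402 to 0.419% in PBS. Monocyte and macrophage markers (7 of 22 called higher) made up 0.866 to 1.24% of counts after β-glucan and 0.713 to 0.792% in PBS, dendritic cell markers (7 of 17 called lower) 0.0620 to 0.0661% of counts after β-glucan and 0.0801 to 0.0967% in PBS, plasma cell markers 0.168 to 0.215% of counts after β-glucan and 0.236 to 0.320% in PBS, and T and NK cell markers (1 of 23 called higher and 3 lower) 0.0749 to 0.0840% of counts after β-glucan and 0.0620 to 0.0710% in PBS. For each of these 7 lists the ranges of the groups did not overlap, and the exact permutation p was 0.0571, the smallest that 3 against 4 libraries allow. Every marker of these lists was detected. The ranges overlapped for megakaryocyte, eosinophil and basophil, and stromal markers. The erythroid, neutrophil, monocyte and B cell shares moved in the same direction as the red cell, myeloid and B lymphoid results that follow. The dendritic and plasma cell shares fell, and that of T and NK cells rose. The part of these shares in those results was not tested. In such bulk samples, fewer cells of a type and less RNA per cell cannot be told apart.

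After β-glucan, 1146 of 16403 genes (6.99%) had a Benjamini-Hochberg adjusted p under 0.05 in edgeR's quasi-likelihood test and are termed called, 495 higher (3.02%) and 651 lower (3.97%). The libraries of the groups did not overlap for 1130 of the 1146, whereas 18.9% of all genes tested did not overlap. Of the called genes 237 fell and 69 rose more than 2-fold. The median called gene rose 1.51-fold or fell 1.73-fold, and the median log2 fold change over all genes tested was -0.01. Leaving out 1 library moved the number of calls by over 1.5 times in 3 cases, to 538 without β-glucan replicate 3, 589 without β-glucan replicate 2 and 671 without PBS replicate 2. The lists of red cell, granulocyte, monocyte and B lineage genes left out 456 of the 495 higher genes (92.1%) and 537 of the 651 lower genes (82.5%), against 97.8% of all genes tested.

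**Figure D1:**
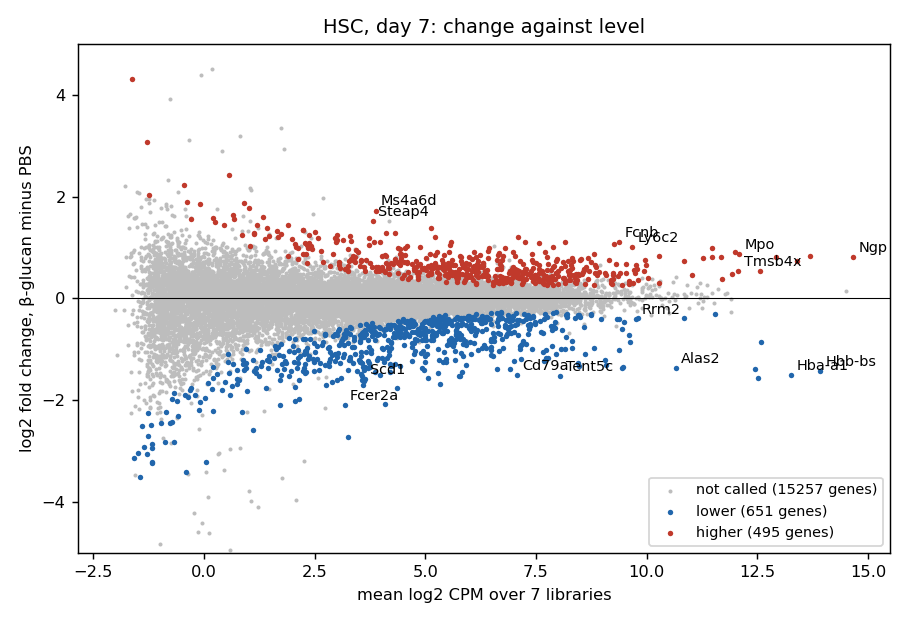
Log2 fold change (β-glucan minus PBS, HSC day 7) against mean log2 CPM over the 7 libraries, 1 point per gene, red for the 495 genes called higher, blue for the 651 called lower and grey for the rest. The genes of highest level that fell are globin genes, the genes of highest level that rose include Ngp and Mpo, and 2 genes lie outside the vertical axis.

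The promoters of 5 granulocyte genes that rose and of 3 red cell genes that fell are shown to display where the cores named here lie. They were picked after values were seen. All 3 red cell promoters shown hold AGATAA, unlike most promoters of their lists. Each sequence holds the 250 bases before the RefSeq start site matched to the gene's start in the count table within 500 bases (mouse build GRCm38.p6, gene strand, 5′ to 3′). Capitals in the granulocyte set mark AGGAAG, the core bound by PU.1 and other ETS factors, and TTNCNNAA, which the C/EBP consensus fits, on either strand. In the red cell set they mark AGATAA or TGATAA, cores bound by GATA factors, on either strand.
Mpo, chr11:87793534-87793783, plus strand: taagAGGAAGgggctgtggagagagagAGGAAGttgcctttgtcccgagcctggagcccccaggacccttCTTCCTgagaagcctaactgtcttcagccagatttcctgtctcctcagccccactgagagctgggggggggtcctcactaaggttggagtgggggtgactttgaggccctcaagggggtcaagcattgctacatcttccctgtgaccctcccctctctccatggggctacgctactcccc
Elane, chr10:79886062-79886311, plus strand: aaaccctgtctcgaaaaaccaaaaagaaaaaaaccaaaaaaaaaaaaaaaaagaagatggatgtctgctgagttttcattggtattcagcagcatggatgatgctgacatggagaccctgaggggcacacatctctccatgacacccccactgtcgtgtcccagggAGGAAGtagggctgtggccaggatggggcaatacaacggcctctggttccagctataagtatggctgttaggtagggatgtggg
Ctsg, chr14:56102575-56102824, minus strand: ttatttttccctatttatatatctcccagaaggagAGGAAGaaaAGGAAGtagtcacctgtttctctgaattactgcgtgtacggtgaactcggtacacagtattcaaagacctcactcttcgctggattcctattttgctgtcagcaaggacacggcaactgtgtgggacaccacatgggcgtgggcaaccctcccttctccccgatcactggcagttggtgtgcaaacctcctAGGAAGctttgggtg
Fcnb, chr2:28084879-28085128, minus strand: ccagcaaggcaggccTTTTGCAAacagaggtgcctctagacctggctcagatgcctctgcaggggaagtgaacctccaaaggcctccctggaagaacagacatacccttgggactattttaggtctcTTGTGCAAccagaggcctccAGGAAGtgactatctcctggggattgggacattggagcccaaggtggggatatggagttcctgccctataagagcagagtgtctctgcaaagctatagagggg
Camp, chr9:109849457-109849706, minus strand: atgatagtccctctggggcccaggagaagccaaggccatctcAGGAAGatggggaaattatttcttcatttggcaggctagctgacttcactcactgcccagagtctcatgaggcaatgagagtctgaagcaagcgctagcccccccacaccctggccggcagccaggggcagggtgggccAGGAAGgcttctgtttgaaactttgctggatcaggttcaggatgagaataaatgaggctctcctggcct
Alas2, chrX:150547167-150547416, plus strand: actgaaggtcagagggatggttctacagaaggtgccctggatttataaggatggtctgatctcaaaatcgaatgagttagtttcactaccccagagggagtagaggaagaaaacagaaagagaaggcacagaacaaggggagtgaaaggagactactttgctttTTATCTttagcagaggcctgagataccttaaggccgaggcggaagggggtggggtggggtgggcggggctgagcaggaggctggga
Rhd, chr4:134864286-134864535, plus strand: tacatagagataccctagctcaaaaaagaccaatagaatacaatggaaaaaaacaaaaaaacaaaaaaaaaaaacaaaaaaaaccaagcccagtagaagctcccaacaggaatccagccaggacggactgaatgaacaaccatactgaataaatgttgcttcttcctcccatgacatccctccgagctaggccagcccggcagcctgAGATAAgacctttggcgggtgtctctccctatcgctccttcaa
Epb42, chr2:121036878-121037127, minus strand: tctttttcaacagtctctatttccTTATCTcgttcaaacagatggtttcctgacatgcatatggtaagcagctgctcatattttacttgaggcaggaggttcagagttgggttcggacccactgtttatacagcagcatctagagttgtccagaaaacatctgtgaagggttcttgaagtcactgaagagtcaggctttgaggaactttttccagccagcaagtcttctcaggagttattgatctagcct
Of 9575 tested genes with such a promoter, 29.3% held AGGAAG, against 23 of 31 granulocyte genes (74.2%), 42.6% of the 343 genes called higher and 26.3% of the 391 called lower. TTNCNNAA was found in 29.2% of all, 20 of 31 granulocyte genes, 41.1% of the higher and 25.8% of the lower genes. AGATAA was found in 5.90% of all promoters in 9 of 70 promoters of 4 red cell lists (12.9%), in 5 of 31 granulocyte genes (16.1%), and in 7.29% of the higher and 6.91% of the lower genes. TGATAA was found in 3.72% of all, 7 of 70 red cell and 1 of 31 granulocyte promoters, 7.00% of the higher and 7.16% of the lower genes. CCAAT, the core bound by NF-Y, was found in 36.7% of all and in 18 of 23 promoters of the cholesterol list. These matches describe letters in a short window and were not tested.

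Genes of the primary granules and of granulocyte progenitors were higher after β-glucan in 21 of 22 tested, with a median log2 fold change of 0.76. Mpo, myeloperoxidase, had 4708, 7848 and 6045 CPM in the β-glucan libraries and 3546, 3834, 3091 and 3119 CPM in the PBS libraries (log2 fold change 0.87 ± 0.15 (SE), adjusted p = 0.0041). Elane, neutrophil elastase, had 3268, 5231 and 4249 CPM in the β-glucan libraries and 2082, 2347, 1941 and 2199.8 CPM in the PBS libraries (log2 fold change 0.99 ± 0.13 (SE), adjusted p = 0.0012). Both genes were highest in β-glucan replicate 2 and lowest, among the treated libraries, in replicate 1, and no treated library overlapped the PBS libraries. The related serine proteases Prtn3 and Ctsg rose by 1.07 and 1.09, and the cathepsin that activates such proteases, Ctsc, by 1.01. Fcnb, a ficolin of neutrophil granules, had 883, 1264 and 958 CPM in the β-glucan libraries and 490.1, 511, 482 and 441 CPM in the PBS libraries (log2 fold change 1.10 ± 0.11 (SE), adjusted p = 0.00018). Ms4a3, a marker of granulocyte-monocyte progenitors, rose from 207 to 449 CPM, and Cebpe, a transcription factor of terminal granulocyte differentiation, from 52.3 to 98.0 CPM. The uncalled member was Calr, a chaperone (0.30 ± 0.08, adjusted p = 0.052). The count was 18 to 22 with any 1 library left out.

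The genes of highest level among those that rose were granule and cytosolic proteins of neutrophils. Ngp had 29041, 46588 and 32721 CPM in the β-glucan libraries and 20408, 20846, 21525 and 19456 CPM in the PBS libraries (log2 fold change 0.81 ± 0.14 (SE), adjusted p = 0.0047). S100a8 and S100a9, the subunits of calprotectin, rose by 0.83 and 0.81, Ltf (lactoferrin) by 0.73, Camp (cathelicidin) by 0.92, Lcn2 by 0.81 and Lyz2 (lysozyme) by 0.54. Tmsb4x and Arhgdib, which act on actin and on small GTPases, rose by 0.54 and 0.48. The treated library with the highest value was replicate 2 for each of these genes. 6 of 10 tested S100 genes were called higher, S100a6 among them (0.74), but 3 without β-glucan replicate 2 or 3 or PBS replicate 1 or 2. The call was lost, with the library in brackets left out, for Lyz2 (β-glucan replicate 2 or 3 or PBS replicate 1, 2, 3 or 4), Tmsb4x (β-glucan replicate 2 or 3 or PBS replicate 1 or 2) and Arhgdib (β-glucan replicate 2 or 3 or PBS replicate 1, 2 or 4).

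**Figure D2:**
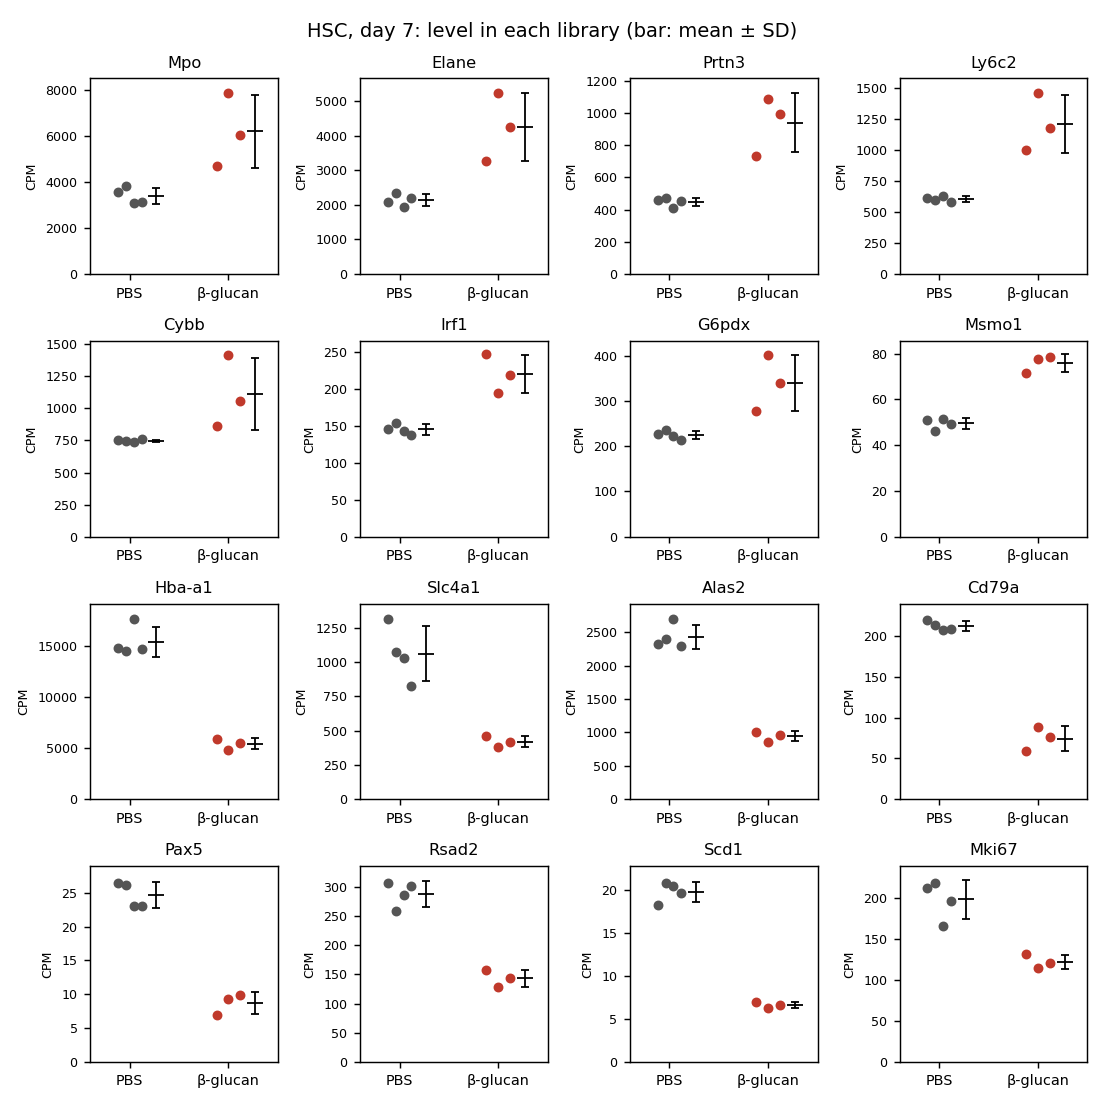
Level in CPM (linear axes from 0) of 16 genes in the 4 PBS libraries (grey) and 3 β-glucan libraries (red) of HSC at day 7, with mean ± SD in black. The groups do not overlap in any panel, which was a condition for naming Hba-a1, Cd79a and Scd1 by size. The granulocyte genes of the top row vary more among the treated libraries than the red cell genes of the third row.

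Among single genes of the largest rise, several belong to monocytes and granulocytes. Ms4a6d, a membrane protein of myeloid cells, had 8.91 ± 2.23 CPM in PBS (SD, n = 4) and 29.4 ± 6.11 CPM after β-glucan (SD, n = 3) (log2 fold change 1.72 ± 0.20 (SE), adjusted p = 0.00041). Steap4, a metalloreductase, had 14.3, 34.7 and 30.0 CPM in the β-glucan libraries and 8.42, 8.53, 9.57 and 10.4 CPM in the PBS libraries (log2 fold change 1.52 ± 0.24 (SE), adjusted p = 0.0028). For both genes β-glucan replicate 1 was the lowest treated library. The coagulation factor gene F10 rose by 1.39, the high-affinity IgG receptor Fcgr1 by 1.22, Lrg1 by 1.20, Prom1 by 1.20, the GTPase Rnd1 by 1.25, Trim45 by 1.15 and Dmkn by 1.28. Selp, the adhesion receptor P-selectin, had 18.8, 24.6 and 20.1 CPM in the β-glucan libraries and 8.42, 8.19, 8.98 and 11.5 CPM in the PBS libraries (log2 fold change 1.19 ± 0.16 (SE), adjusted p = 0.0011). Tspan7, a tetraspanin, rose from 5.77 to 12.7 CPM. The genes above, from Ms4a6d to Tspan7, were chosen by size only among called genes whose groups do not overlap. Their lack of overlap was thus set by the rule. The smallest p-values beyond these belonged to Ly6c2, Ffar2 (a short-chain fatty acid receptor), Mogat2, Tuba8, Gca, Clec5a and Cldn15, with log2 fold changes of 1.00, 0.84, 1.10, 0.86, 0.84, 0.83 and 1.04. Without the library in brackets, Rnd1 (β-glucan replicate 2 or 3) and Trim45 (β-glucan replicate 2 or 3 or PBS replicate 3) did not pass.

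Card9, Myd88 and Pycard, adaptors of pathogen sensing, rose, while the call was not reached for dectin-1 itself. In a list of dectin-1, Toll-like receptor and inflammasome genes 9 of 39 were called higher and 0 lower, with a median of 0.27. Card9, the adaptor of dectin-1 signalling, had 25.9, 31.1 and 29.9 CPM in the β-glucan libraries and 9.67, 9.46, 13.3 and 15.4 CPM in the PBS libraries (log2 fold change 1.28 ± 0.17 (SE), adjusted p = 0.0012). Myd88, the common adaptor of Toll-like receptors, had 111, 134 and 129 CPM in the β-glucan libraries and 85.0, 83.2, 81.5 and 82.2 CPM in the PBS libraries (log2 fold change 0.59 ± 0.08 (SE), adjusted p = 0.0013), Tlr4 rose by 0.56, and Pycard, the inflammasome adaptor, by 0.45. Every treated library lay above every PBS library for these 4 genes, which was a condition for naming Card9 by the size of its change. Clec7a itself had 37.6, 59.6 and 46.9 CPM in the β-glucan libraries and 36.0, 36.9, 49.8 and 49.1 CPM in the PBS libraries (log2 fold change 0.16 ± 0.16 (SE), adjusted p = 0.66), and the groups overlapped. Syk, the kinase next to the receptor, changed by -0.17 ± 0.09 (adjusted p = 0.29). C-type lectin genes gave 3 higher of 22 (6 without β-glucan replicate 1), the myeloid receptors Clec5a, Clec4a2 (0.75) and Clec12a (0.74). The 9 calls became 5 without β-glucan replicate 2 or 3.

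Some effector genes of phagocytes rose. Of 11 genes of the NADPH oxidase, the enzyme of the respiratory burst, 5 rose and 0 fell. Its membrane subunit Cybb had 861, 1419 and 1057 CPM in the β-glucan libraries and 751, 744, 742 and 758 CPM in the PBS libraries (log2 fold change 0.57 ± 0.13 (SE), adjusted p = 0.021), and the cytosolic subunit Ncf4 had 324, 486 and 403 CPM in the β-glucan libraries and 238, 239, 263 and 232 CPM in the PBS libraries (log2 fold change 0.73 ± 0.11 (SE), adjusted p = 0.0025). Replicate 2 was the highest treated library for both, and the lowest treated value of Cybb lay close above the PBS range. Cyba and Ncf1 rose by 0.56 and 0.61, and Rac2 changed by 0.29 ± 0.10 (adjusted p = 0.10). The 5 calls became 1 without β-glucan replicate 3, 2 without β-glucan replicate 2 and 3 without PBS replicate 2 or 3, and Ncf4 was the 1 gene left in the smallest count. Leukotriene and prostaglandin genes gave 6 higher of 25 (3 without β-glucan replicate 3), among them Lta4h (0.75), Alox5 (0.54) and Alox5ap (0.53), which all act in leukotriene synthesis. Fc receptor and complement genes gave 9 higher and 2 lower of 26, the former 3 without β-glucan replicate 2 or 3, 4 without PBS replicate 2 and 5 without PBS replicate 1 or 4: Fcgr2b (0.85) and the common chain Fcer1g (0.49) rose, and the B cell genes Fcer2a and Fcrla fell. In the Ms4a family 6 of 12 rose, Ms4a3, Ms4a6d, Ms4a6c and Ms4a4a among them, while the B cell gene Ms4a1 (CD20) had 19.9, 19.0 and 23.3 CPM in the β-glucan libraries and 60.9, 62.2, 77.2 and 66.9 CPM in the PBS libraries (log2 fold change -1.69 ± 0.12 (SE), adjusted p = 1.4e-05). Lysosomal genes gave 13 higher of 39, with Hexa at 0.56, and 1 lower, the protease Ctse, at -1.02 ± 0.13. The 13 became 4 without β-glucan replicate 2 or 3, 6 without PBS replicate 2 and 8 without PBS replicate 1. The chemokine receptor Ccr2, which brings monocytes to inflamed tissue, rose by 0.87, and the lymphoid receptors Ccr7 and Cxcr5 changed by -1.23 and -2.02 as log2 changes. Calls that depended on 1 library, given in brackets, were those of Cybb and Alox5 (β-glucan replicate 2 or 3 or PBS replicate 2 or 3), Cyba (β-glucan replicate 3), Ncf1 (β-glucan replicate 2 or 3 or PBS replicate 3), Alox5ap (β-glucan replicate 2 or 3 or PBS replicate 2) and Fcer1g (β-glucan replicate 2 or 3 or PBS replicate 1 or 2).

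Of 45 interferon-response genes 12 were called higher, 2 lower and 31 not called, with a median of 0.28. Irf1, a transcription factor of the response, had 247, 195 and 219 CPM in the β-glucan libraries and 147, 154, 143 and 137 CPM in the PBS libraries (log2 fold change 0.60 ± 0.09 (SE), adjusted p = 0.0016). Oas1a, an antiviral enzyme, rose by 0.56, the immunoproteasome subunit Psmb9 by 0.45 and the nucleic acid sensor Zbp1 by 0.97, and B2m changed by 0.19 ± 0.08 (adjusted p = 0.23). Unlike the granule genes, Irf1 was highest in β-glucan replicate 1 and lowest, among the treated libraries, in replicate 2. Rsad2, a well known interferon target, went the other way, with 157, 129 and 144 CPM in the β-glucan libraries and 308, 258, 286 and 302 CPM in the PBS libraries (log2 fold change -1.01 ± 0.09 (SE), adjusted p = 8.6e-05), as did Isg20 (-0.94 ± 0.11). The groups were apart for both of these genes. The 12 calls became 4 without β-glucan replicate 3, 5 without PBS replicate 2, 6 without PBS replicate 3 and 7 without PBS replicate 4. In the Ifitm family 4 of 7 rose. Cytokine receptor chains gave 3 higher and 3 lower of 43, with a median of 0.17. Cytokine feedback genes gave 4 higher and 0 lower of 25, with a median of 0.0006. Over all genes tested 3.02% were called higher and 3.97% lower. Among single genes that rose, the feedback inhibitor Socs3 changed by 1.09 and the common β chain Csf2rb by 0.54. The decoy receptor Il1r2 rose by 0.73 and the inhibitor of differentiation Id2 by 0.63. Among endoplasmic reticulum chaperones and heat shock proteins 6 of 29 rose, with P4hb at 0.44, Hspa5 at 0.29, Manf at 0.35 and Sdf2l1 at 0.61. The 6 calls became 0 without β-glucan replicate 2 or 3, 2 without PBS replicate 2 or 3 and 3 without PBS replicate 1 or 4. Calls that depended on 1 library, given in brackets, were those of Oas1a, Socs3 and Il1r2 (β-glucan replicate 3), Csf2rb and P4hb (β-glucan replicate 2 or 3), Hspa5 (β-glucan replicate 2 or 3 or PBS replicate 2, 3 or 4), Manf (β-glucan replicate 2 or 3 or PBS replicate 2 or 3) and Sdf2l1 (β-glucan replicate 2 or 3 or PBS replicate 1 or 3).

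Of 31 glycolysis and pentose phosphate genes 13 were called higher and 2 lower, with a median of 0.32. G6pdx, the entry enzyme of the pentose phosphate pathway, had 278, 402 and 339 CPM in the β-glucan libraries and 227, 235, 222 and 214 CPM in the PBS libraries (log2 fold change 0.60 ± 0.11 (SE), adjusted p = 0.0054), with no overlap and the highest value in β-glucan replicate 2. Gpi1, Eno1 and Pfkp rose by 0.50, 0.45 and 0.39, and Aldoa changed by 0.32 ± 0.09 (adjusted p = 0.052). Bpgm, which makes the 2,3-bisphosphoglycerate of red cells, had 399, 377 and 437 CPM in the β-glucan libraries and 1005, 1017, 1196 and 972 CPM in the PBS libraries (log2 fold change -1.37 ± 0.09 (SE), adjusted p = 1.3e-05). All 3 treated libraries were below all 4 PBS libraries. The 13 calls became 6 without β-glucan replicate 2 or 3 and 7 without PBS replicate 1 or 2.

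Cholesterol synthesis genes gave 8 higher and 0 lower of 33, with a median of 0.27. Msmo1, a sterol oxidase, had 71.4, 77.8 and 78.6 CPM in the β-glucan libraries and 51.1, 46.4, 51.7 and 49.4 CPM in the PBS libraries (log2 fold change 0.61 ± 0.08 (SE), adjusted p = 0.0011), with the 3 treated libraries close together. Sc5d, a sterol desaturase, rose by 0.49. The 8 calls became 2 without β-glucan replicate 2 or 3, 3 without PBS replicate 2 and 5 without PBS replicate 3. Scd1, a fatty acid desaturase, had 6.91, 6.22 and 6.58 CPM in the β-glucan libraries and 18.2, 20.8, 20.4 and 19.6 CPM in the PBS libraries (log2 fold change -1.59 ± 0.13 (SE), adjusted p = 5.6e-05). Its groups were far apart, with little spread in either, and lack of overlap was a condition for naming it by size. Antioxidant enzymes divided into 7 higher (Gstm1 at 0.65 and Glrx at 0.51 among them) and 6 lower of 31, and the 7 became 3 without β-glucan replicate 2 or PBS replicate 2 and 4 without β-glucan replicate 3. Those that fell included Prdx2, an abundant red cell protein, and the mitochondrial Txnrd2, at -0.72 and -0.90, and Gpx1 changed by -0.27 ± 0.08 (adjusted p = 0.065).

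**Figure D3:**
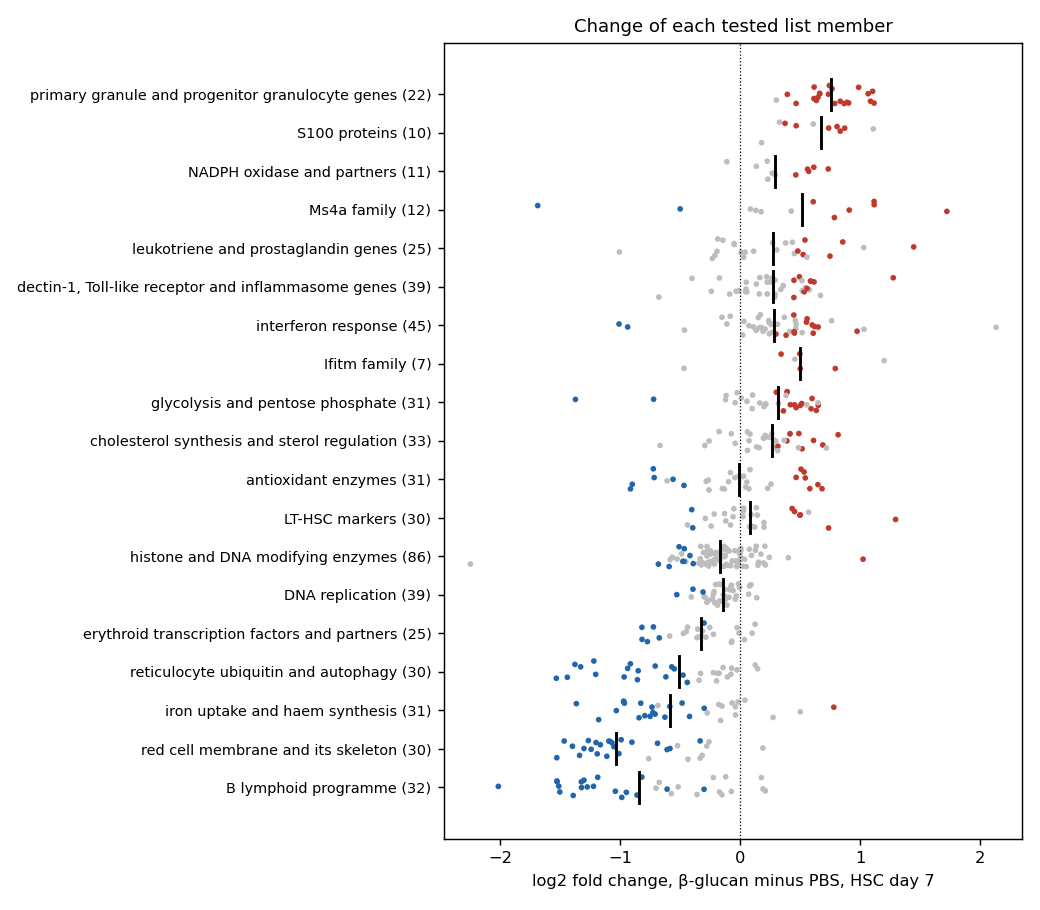
Log2 fold change of each tested member of 19 lists (number tested in brackets), red where called higher, blue where called lower and grey otherwise, with the list median as a black bar and the median of all genes as a dotted line. Members of the granulocyte and red cell lists lie to opposite sides, and antioxidant enzymes to both.

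Of 123 tested genes in 5 red cell lists 68 fell (55.3%, against 3.97% of all genes tested) and 1 rose. The 68 made up 10.4% of all genes called lower. Hba-a1, an α-globin gene, had 5924, 4828 and 5525 CPM in the β-glucan libraries and 14761, 14473, 17600.2 and 14750.3 CPM in the PBS libraries (log2 fold change -1.50 ± 0.11 (SE), adjusted p = 2.0e-05). PBS replicate 3 was the highest library. The treated libraries all lay below the PBS libraries, which was a condition for naming Hba-a1 by size. Hba-a2 changed by -1.56, Hbb-bs by -1.43 and Hbb-bt by -1.38 as log2 changes. These near-identical copies can share reads, so their separate values are uncertain. Of 30 genes of the red cell membrane and its skeleton 22 fell and 0 rose, with a median of -1.03. The anion exchanger Slc4a1 had 459.7, 381 and 417 CPM in the β-glucan libraries and 1312, 1072, 1032 and 826 CPM in the PBS libraries (log2 fold change -1.34 ± 0.14 (SE), adjusted p = 0.00018). The skeleton genes Sptb and Epb41 and the gene Tmcc2 changed by -1.47, -1.05 and -1.27, with no overlap between the groups. Without any 1 library the count stayed between 20 and 23.

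Haem synthesis and iron uptake fell in 18 of 31 genes, with a median of -0.59. Alas2, the erythroid form of the first enzyme, had 1005, 859 and 965 CPM in the β-glucan libraries and 2320.5, 2404, 2699.8 and 2304 CPM in the PBS libraries (log2 fold change -1.37 ± 0.09 (SE), adjusted p = 1.3e-05), with the groups apart. Alas1, the form of other cells, was the 1 member that rose. The mitochondrial iron importer Slc25a37 and Fech, the last enzyme, changed by -1.18 and -0.97, and ferritin heavy chain Fth1 by -0.30. A list headed reticulocyte ubiquitin and autophagy fell in 17 of 30 genes, with a median of -0.51. The smallest p-value of all belonged to Tent5c, a poly(A) polymerase that was placed on that list. Tent5c had 140.1, 149.6 and 143 CPM in the β-glucan libraries and 403, 413, 463 and 391 CPM in the PBS libraries (log2 fold change -1.53 ± 0.08 (SE), adjusted p = 4.4e-06). Xpo7, Mkrn1 and Trim10 changed by -1.38, -0.92 and -1.22 as log2 changes. Others of small p with red cell expression were Tfdp2 (-1.22), Ranbp10 (-1.25), Hectd4 (-1.20), Car2 (-0.86) and the survival gene Bcl2l1. Bcl2l1 had 228, 218 and 203 CPM in the β-glucan libraries and 414, 427, 428 and 441 CPM in the PBS libraries (log2 fold change -0.98 ± 0.07 (SE), adjusted p = 2.3e-05). Ucp2, named for its high level, changed by -0.39 (adjusted p = 0.049). With the bracketed library removed, the adjusted p exceeded the threshold for Fth1 (β-glucan replicate 1, 2 or 3 or PBS replicate 1, 2, 3 or 4) and Ucp2 (β-glucan replicate 1, 2 or 3 or PBS replicate 1, 2 or 3).

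Of 25 transcription factors and partners of the erythroid lineage 6 fell (3 without β-glucan replicate 3), including Klf1 (-0.82 ± 0.20) and Foxo3 (-0.68 ± 0.12), and the list median was -0.32. Gata1 had 129 ± 15.9 CPM in PBS (SD, n = 4) and 101 ± 12.7 CPM after β-glucan (SD, n = 3) (adjusted p = 0.086), and Car1, an early erythroid carbonic anhydrase, changed by -0.35 ± 0.14 (adjusted p = 0.18). Whether this list differed from the other red cell lists was not tested. With the bracketed library removed, the adjusted p exceeded the threshold for Klf1 (β-glucan replicate 2 or 3 or PBS replicate 1, 2 or 4).

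Of 32 genes of the B lymphoid programme 19 fell and 0 rose, with a median of -0.84. Cd79a, a chain of the B cell receptor complex, had 58.7, 88.7 and 76.2 CPM in the β-glucan libraries and 221, 214, 207 and 209 CPM in the PBS libraries (log2 fold change -1.51 ± 0.12 (SE), adjusted p = 3.0e-05). Pax5, the factor that commits cells to the lineage, had 6.91, 9.33 and 9.83 CPM in the β-glucan libraries and 26.5, 26.1, 23.0 and 23.1 CPM in the PBS libraries (log2 fold change -1.50 ± 0.15 (SE), adjusted p = 0.00018). Neither gene had overlapping groups, which was a condition for naming Cd79a by the size of its change. Ebf1, another such factor, Vpreb3 and Cd79b changed by -1.53, -1.39 and -0.99. Cecr2, named for the size of its fall, changed by -1.53. Fcer2a (CD23), a receptor of mature B cells, had the largest fall of the genes chosen by size, with 4.01, 3.15 and 4.71 CPM in the β-glucan libraries and 16.2, 19.1, 20.4 and 12.1 CPM in the PBS libraries (log2 fold change -2.10 ± 0.22 (SE), adjusted p = 0.00019). Fcrla and the peptidase gene Cpm changed by -1.57 and -1.60, and Irf4, a factor of lymphoid and plasma cells, by -1.49, all as log2 changes. Some marker genes of high level did not pass: Ighm changed by -0.33 ± 0.13 (adjusted p = 0.16) and Cd74 by -0.29 ± 0.13 (adjusted p = 0.25). Immunoglobulin variable segments were called lower in 10 of 70 heavy and 11 of 63 kappa genes. The heavy count became 4 without β-glucan replicate 2 or PBS replicate 2, 5 without β-glucan replicate 3 or PBS replicate 3 and 6 without PBS replicate 1, and the kappa count 5 without β-glucan replicate 3 and 6 without PBS replicate 2. Among genes of at least 5 CPM on average, 0 heavy and 1 kappa segments were called.

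Of 102 genes in 3 cell cycle lists 10 were called lower (9.80%, against 3.97% of all genes tested) and 0 higher. Of 39 DNA replication genes 3 fell and 0 rose, of 36 mitotic genes 3 fell and 0 rose, and of 27 tested cyclins, inhibitors and E2F factors 4 fell and 0 rose. The first count became 1 without β-glucan replicate 2 and 5 without PBS replicate 3, the second 1 without β-glucan replicate 3 and the third 1 without β-glucan replicate 2 or 3 and 2 without PBS replicate 3. Mki67, a proliferation marker, had 131, 114 and 121 CPM in the β-glucan libraries and 212, 218, 166 and 196 CPM in the PBS libraries (log2 fold change -0.70 ± 0.10 (SE), adjusted p = 0.0015). PBS replicate 3 was the lowest control and still above the treated libraries. Pole and Mcm4 changed by -0.53 and -0.31, Cenpf by -0.58, and the ribonucleotide reductase subunit Rrm2 by -0.41, while Top2a (-0.15 ± 0.08, adjusted p = 0.33) and Mcm5 (-0.06 ± 0.08, adjusted p = 0.75) did not pass. The antiproliferative gene Btg2 changed by -0.38 ± 0.07. Among these, the call needed the library in brackets for Mcm4 (β-glucan replicate 2 or 3 or PBS replicate 1, 2 or 4) and Cenpf and Rrm2 (β-glucan replicate 3).

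Enzymes that modify histones and DNA were lower in 8 of 86 genes and higher in 1, with 67 negative values and a median of -0.17. The methyltransferase gene Kmt2d had 129.5, 133 and 128 CPM in the β-glucan libraries and 179, 233, 143 and 231 CPM in the PBS libraries (log2 fold change -0.59 ± 0.14 (SE), adjusted p = 0.029). The treated libraries were close together and the PBS libraries spread widely, with replicate 3 lowest. The demethylase Kdm2a changed by -0.39 ± 0.08, Tet1, which oxidises methylcytosine, by -0.68 ± 0.16, and Dnmt1 by -0.25 ± 0.12 (adjusted p = 0.26). The 8 calls became 0 without β-glucan replicate 2 or PBS replicate 2, 1 without β-glucan replicate 3, 2 without β-glucan replicate 1, 4 without PBS replicate 1 and 5 without PBS replicate 4. Among these, the call needed the library in brackets for Kmt2d (β-glucan replicate 1, 2 or 3 or PBS replicate 2 or 4), Kdm2a (β-glucan replicate 2 or PBS replicate 2) and Tet1 (β-glucan replicate 1, 2 or 3 or PBS replicate 2). These genes are long, with a median exon length of 5489 bases against 1914 for the granulocyte list, and exon length moved with the fold change across the transcriptome. Protein-coding genes of up to 1000 bases had a median log2 fold change of 0.09 (493 genes), and those over 10000 bases one of -0.20 (867 genes). Of the long class 12.6% were called lower and 0.461% higher. The 3 treated libraries each deviated downward for the 867 long genes, by -0.19 to -0.17 (median log2 difference from the PBS mean), and the 4 PBS libraries ranged from -0.09 to 0.07. The trend was as steep outside the red cell, granulocyte, monocyte and B lineage lists (0.09 and -0.20), and at day 28 the same classes had medians of 0.03 and -0.02. The part of length in the results on chromatin genes was not tested.

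**Figure D4:**
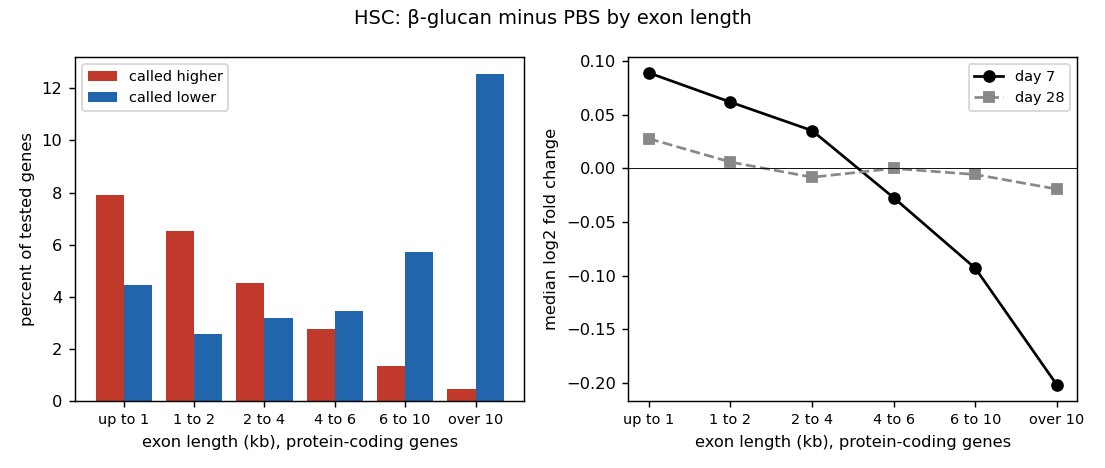
Left, percent of tested protein-coding genes called higher (red) and lower (blue) at day 7 by exon length in kb; right, median log2 fold change in the same classes at day 7 (circles) and day 28 (squares). At day 7 the share called lower reaches 12.6% in the longest class, and the median goes from 0.09 to -0.20.

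Classes of transcripts that do not code for protein differed in the sign of their median. Over all genes tested 3.02% were called higher and 3.97% lower. Of 1786 processed pseudogenes 15 rose (0.840%) and 5 fell (0.280%), with a median of 0.08. Of 30 transcribed unprocessed pseudogenes 2 rose and 0 fell. Of 348 lincRNA genes 10 fell (2.87%) and 1 rose, with a median of -0.13. Of 348 antisense genes 11 fell (3.16%) and 0 rose, with a median of -0.14. Both shares called lower were below that of all genes. Of 280 unconfirmed loci of the annotation class TEC 25 fell (8.93%) and 0 rose, with a median of -0.66. Sense intronic genes had a median of -0.71, with 6 of 42 lower (14.3%). The reads do not mark strand, so antisense and intronic genes cannot be told apart from the genes they overlap. The lincRNA gene of smallest p was Gm30211, with 4.83, 7.88 and 5.83 CPM in the β-glucan libraries and 20.5, 20.5, 19.3 and 20.3 CPM in the PBS libraries (log2 fold change -1.70 ± 0.17 (SE), adjusted p = 0.00018). Malat1 changed by -0.40 as a log2 change. Of the structural genes, Lmna, the nuclear lamin A/C, had 25.3, 17.7 and 19.6 CPM in the β-glucan libraries and 47.0, 42.3, 30.1 and 62.6 CPM in the PBS libraries (log2 fold change -1.13 ± 0.21 (SE), adjusted p = 0.0075), Vim rose by 0.57, and the integrin subunit Itga4 changed by -0.51 ± 0.09. Among these, the call needed the library in brackets for Malat1 (β-glucan replicate 1, 2 or 3 or PBS replicate 2 or 3).

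Several groups had few or no calls. Among all genes tested 6.99% were called, so the smaller of these lists would hold few calls in any case. Cytosolic ribosomal proteins gave 1 call in 86, mitochondrial ribosomal proteins 0 in 81, ribosome biogenesis genes 0 in 32, stem cell transcription factors 0 in 27, stromal and endothelial markers 0 in 21, replication-dependent histones 0 in 27 and genes of the mitochondrial genome 0 in 19 by edgeR's quasi-likelihood test. Of these lists with 0 calls, the unadjusted p was under 0.05 for 9 mitochondrial ribosomal, 3 ribosome biogenesis, 5 stem cell factor, 2 stromal, 5 histone and 1 mitochondrial genome genes. In the same order, DESeq2's Wald test called 1, 0, 1, 0, 1 and 0 genes and limma voom 1, 1, 2, 0, 1 and 0. Zinc finger genes named Zfp gave 8 lower and 0 higher of 348, against 3.97% lower and 3.02% higher of all genes tested, with 233 negative values. The 8 became 0 without β-glucan replicate 3, 2 without β-glucan replicate 2 or PBS replicate 2 and 4 without PBS replicate 1. Megakaryocyte and platelet markers gave 1 higher of 24, Selp, with a median of 0.58.

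At day 28, in separately injected mice, 23 of 16025 genes were called (0.144%), 17 higher (0.106%) and 6 lower (0.0374%). Leaving out any 1 of the 8 day 28 libraries moved that count by over 1.5 times, to between 0 and 114. The count also depended on the tool and threshold. DESeq2's Wald test called 589 genes at day 28 and 1711 at day 7. The unadjusted p of edgeR's quasi-likelihood test was under 0.05 for 2741 of 16025 genes at day 28 and 3271 of 16403 at day 7. Of the 495 genes higher at day 7, 494 were tested at day 28 and 221 had the same sign. Of these 494, 9 were called at day 28, 8 of them in the same direction, and the median log2 fold change was -0.03. Of the 651 lower genes 643 were tested and 378 had the same sign. Of these 643, 2 were called at day 28, 1 of them in the same direction, and the median was -0.05. The difference between the 2 effects was called for 909 of 17977 genes (5.06%), higher at day 28 for 421 (2.34%) and lower for 488 (2.71%). It was called for 288 of the higher and 323 of the lower genes of day 7. Those genes were called from the same day 7 libraries that enter the difference, so a high share among them was set in part by that choice. The 909 became 488 without β-glucan replicate 2 of day 7 and 577 without replicate 3. For Camp the effect went from 0.92 to -0.44 (difference -1.38 ± 0.16 (SE), adjusted p = 9.8e-05), for Irf1 from 0.60 to -0.32 (difference -0.95 ± 0.14 (SE), adjusted p = 0.00078), for Slc4a1 from -1.34 to -0.02 (difference 1.29 ± 0.21 (SE), adjusted p = 0.0013) and for Cd79a from -1.51 to -0.24 (difference 1.25 ± 0.14 (SE), adjusted p = 4.6e-05).

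A few genes were called in the same direction at both days. Prtn3 had log2 fold changes of 1.07 and 0.58, Tspan7 of 1.15 and 1.51, Dmkn of 1.28 and 0.53, Prok2 of 1.12 and 0.88, and the endothelial lipase Lipg of 2.42 and 1.38. The endoplasmic reticulum genes Sdf2l1 (0.61 and 1.08) and Manf (0.35 and 0.53) were also higher at both, as was Degs2 (3.08 and 1.30), which lay below 3 CPM in every day 7 library, and the surrogate light chain Vpreb1 was lower (-0.82 and -0.64). For none of these 9 did the difference between days pass the test, with Prtn3 at -0.52 ± 0.16 (SE), adjusted p = 0.058 and Dmkn at -0.77 ± 0.23 (SE), adjusted p = 0.056 nearest to it. At day 7 the call needed the library in brackets for Sdf2l1 (β-glucan replicate 2 or 3 or PBS replicate 1 or 3), Manf (β-glucan replicate 2 or 3 or PBS replicate 2 or 3), Degs2 (β-glucan replicate 2 or 3 or PBS replicate 1 or 2) and Vpreb1 (β-glucan replicate 3 or PBS replicate 1 or 3). At day 28 none of the 9 was called without PBS replicate 1 or without PBS replicate 4 of that day. The primary granule genes Elane and Cebpe had 0.50 and 0.48 at day 28 without being called.

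**Figure D5:**
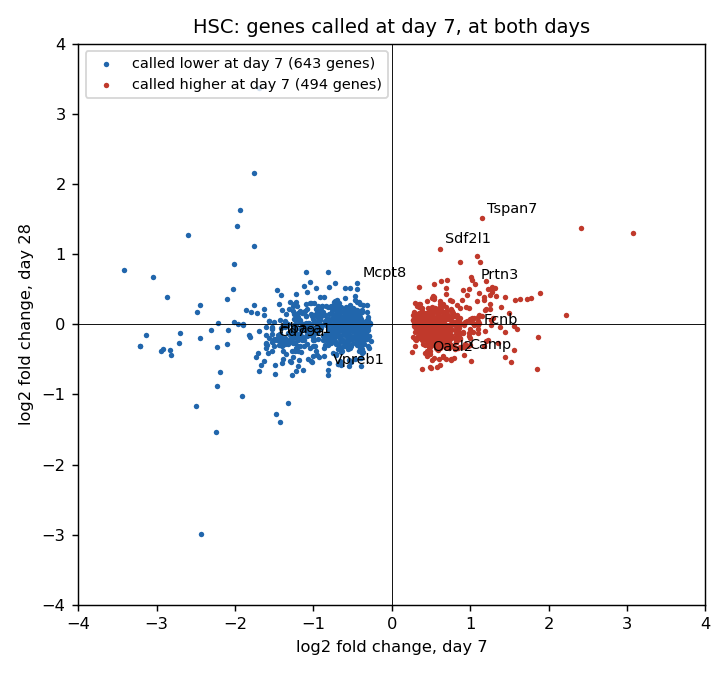
Log2 fold change (β-glucan minus PBS) in HSC at day 28 against day 7 for genes called at day 7, red where higher (494 genes) and blue where lower (643 genes). Points spread along the horizontal axis with day 28 medians of -0.03 and -0.05, and Prtn3, Tspan7 and Sdf2l1 are higher at both days.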

How the data were processed

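RNA of sorted cells was amplified with the SMARTer Ultra HV v2 kit, per the labels' protocols, which does not mark strand. The submitters' processing notes name bcl2fastq 1.8.4, featureCounts and mm10 (aligner: not given in the sources used here). The deposited values are raw counts per gene. Table columns carry no day. The table of 3 β-glucan and 4 PBS HSC columns was taken as day 7 and the table with MPP columns as day 28, where P and G were read as PBS and β-glucan. Symbols were found for 45143 of 45706 identifiers, biotypes came from GENCODE, and promoters from RefSeq.

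Low genes were removed with filterByExpr (minimum count 10), libraries were scaled by TMM, and groups were compared by edgeR 4.0.16's robust quasi-likelihood test in R 4.3.3, calling genes at a Benjamini-Hochberg adjusted p under 0.05. For the difference between days, all 4 groups entered a single fit. CPM values use TMM-scaled library sizes. The test was also run on simulated data. Its p-values set the difference between groups against the spread between these libraries, which may be technical in part.

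The members, the 75 gene lists and the rule for named genes were chosen with earlier results of these data known. Named are, per direction, up to 12 called genes of the largest change whose groups do not overlap (mean log2 CPM of 3 or more, no antibody segments or provisional symbols), the next 12 by p, the 10 of highest level, up to 6 called and 3 uncalled members of each list described, and up to 4 non-coding genes. Some genes that the rule gives are not reported here. Alas1, Rhd, Epb42, Prok2, Lipg, Degs2, Vpreb1 and the 4 genes set out between days were picked after their values were seen. Alternatives used DESeq2 1.42.0, limma 3.58.1 and a fit without robust estimation, the last chosen after seeing the data.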

Additional observations from a re-analysis of the deposited data

Results flagged for a closer look

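The effect of β-glucan differed between day 28 and day 7 in 909 genes, by a contrast of 4 groups in edgeR's quasi-likelihood test. Of 158 genes named in the report 108 were among them, against 5.06% of all 17977 genes tested. Of the 158, 143 were called at day 7, and the contrast uses the same day 7 libraries. A high share was therefore set in part by how the genes were chosen. Values are day 28 minus day 7 on the log2 scale. Negative differences, where the day 7 effect was the more positive, are given first. The differences of the largest size among them were Steap4 -2.08, Fcgr1 -1.47, Ms4a6d -1.39, Camp -1.38, Ly6c2 -1.32, Zbp1 -1.31, Fcnb -1.20, Gca -1.20, Lcn2 -1.19, F10 -1.17, Mogat2 -1.14, Ms4a4a -1.12, Ltf -1.09 and Ngp -1.09. Next in size were Ccr2 -1.09, S100a8 -1.08, Trim45 -1.05, Cldn15 -1.04, S100a9 -1.03, Selp -1.02, Prom1 -1.01, Ctsc -0.99, Fcgr2b -0.97, Clec4a2 -0.97, Ffar2 -0.96, Irf1 -0.95, Tuba8 -0.94 and Lta4h -0.93. Then followed Oas1a -0.92, S100a6 -0.92, Ly6a -0.86, Lyz2 -0.86, Clec12a -0.86, Sc5d -0.84, Ncf4 -0.83, Msmo1 -0.82, Cybb -0.81, Ms4a6c -0.81, Clec5a -0.80, Alox5 -0.80, Ctsg -0.79 and Tmsb4x -0.74. Smaller differences were Id2 -0.73, Tlr4 -0.73, Ifitm3 -0.70, Ms4a3 -0.69, Psmb9 -0.69, Alox5ap -0.68, G6pdx -0.68, Cyba -0.67, Mpo -0.66, Alas1 -0.64, Hexa -0.63, Gpi1 -0.59, Fcer1g -0.58 and Myd88 -0.57. Others were Glrx -0.57, Gstm1 -0.55, Eno1 -0.51 and Pfkp -0.50. Positive differences follow. They were led by Cxcr5 2.02, Sptb 1.94, Fcer2a 1.80, Lmna 1.65, Klf1 1.54, Fech 1.47, Ebf1 1.46, Cecr2 1.43, Hectd4 1.34, Hba-a2 1.34, Ranbp10 1.30, Slc4a1 1.29, Mkrn1 1.28 and Hba-a1 1.27. After these came Gm30211 1.27, Scd1 1.27, Cd79a 1.25, Cpm 1.24, Slc25a37 1.21, Pax5 1.17, Hbb-bs 1.16, Fcrla 1.14, Tent5c 1.13, Bpgm 1.12, Ctse 1.12, Xpo7 1.11, Hbb-bt 1.11 and Bcl2l1 1.09. In the middle of the order stood Tmcc2 1.06, Alas2 1.06, Epb41 1.04, Mki67 1.03, Txnrd2 1.00, Ms4a1 1.00, Vpreb3 0.99, Kmt2d 0.94, Isg20 0.91, Irf4 0.88, Car2 0.88, Trim10 0.86, Tfdp2 0.84 and Ccr7 0.83. Lower in the order were Foxo3 0.77, Prdx2 0.75, Cd79b 0.73, Rsad2 0.68, Cenpf 0.63 and Pole 0.50.

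In the 4 PBS libraries of day 7, 1 library stood apart from the other 3 by more than chance usually allows in 4 values (Dixon ratio) for 8 of 158 named genes (5.06%). PBS replicate 3 was that library for most of them. Genes of the same libraries are not independent, so this share cannot be set against chance. Cd34 had 512 CPM in PBS replicate 3, with the others at 581 to 587 CPM. Cd79b had 326 CPM in PBS replicate 4, with the others at 373 to 378 CPM. Ebf1 had 74.2 CPM in PBS replicate 3, with the others at 89.5 to 91.7 CPM. Fcgr1 had 4.97 CPM in PBS replicate 2, with the others at 7.25 to 7.5 CPM. Hba-a1 had 17600.2 CPM in PBS replicate 3, with the others at 14473 to 14761 CPM. Hba-a2 had 10737 CPM in PBS replicate 3, with the others at 8730.2 to 9062 CPM. S100a6 had 301 CPM in PBS replicate 3, with the others at 244 to 252 CPM. Gm30211 had 19.3 CPM in PBS replicate 3, with the others at 20.3 to 20.5 CPM.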

How the results depend on the processing

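Counts of called genes at day 7 (1146; 495 higher, 651 lower) stayed within 1.5 times under DESeq2 size factors, upper quartile scaling, scaling without lineage markers, other filters and a joint fit with day 28. Limma voom with quality weights called 1744 (750 and 994), DESeq2's Wald test 1711 (745 higher). Without 1 library the count ranged from 538 to 1297, with 204 to 680 higher and 334 to 623 lower. At day 28 (23; 17 and 6) a mean CPM of at least 5 left 3 calls (3 and 0), the Wald test 589 (295 and 294), no robust estimation, added after seeing the data, 6 (6 and 0), and leaving out 1 library 0 to 114 (0 to 66 higher, 0 to 48 lower). Of the differences between days (909; 421 and 488) the Wald test called 1432 (663 and 769), and leaving out 1 library gave 488 to 1146 (275 to 532 higher, 213 to 622 lower). Replicate numbers share only a number: same-numbered libraries of the 2 groups had correlations of deviations of -0.03 to 0.01. With the replicate block, day 7 gave 785 calls (295 higher), day 28 gave 96 (61 and 35) and the difference 832. Of 143 called genes named, 107 kept their call under the alternatives run, and 36 lost it under at least 1, 32 of them without β-glucan replicate 3. The sign turned for Clec7a, not called (range -0.0245 to 0.31 with 1 library left out). Without the 10 highest genes in the total, the share of erythroid markers differed by -5.23 percentage points (-4.53 with them) and that of B cell markers by -0.161 (-0.140). The cause of these changes was not tested. Without a filter 28981 genes were tested and 1070 of the 1146 calls remained.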
